A study of Homo sapiens with 6 samples.

Results

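The genes described here are 37 genes of amino acid supply, 19 that encode enzymes and 18 that encode membrane transporters or a transporter's heavy chain. They were chosen by gene symbol for what their products are known to do, with earlier results of these data known. All 37 have a row among the 16229 genes of the counts table, and 35 passed the filter on low counts and were tested, out of 12604 tested genes. The data are RNA-seq libraries of a line labelled MC38, described as wild-type colorectal cancer cells, 3 from cells treated for 24 hours with GCA and 3 from untreated cells (CON). GCA is read from the title of the series as glycocholic acid, a bile acid conjugated to glycine, at a dose that the labels do not state. The name MC38 usually belongs to a mouse line, but the organism label is human and the tables list human symbols. The GCA libraries carry the title fa, so their group rests on the treatment label. Whether separate cultures lie behind the 3 libraries of a group is not stated, so the p-values reflect only the spread between libraries, which may be technical.

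Growing cells need amino acids for protein, nucleotides and glutathione, and they obtain them by uptake and by synthesis. Serine is made from a glycolytic intermediate in the steps catalysed by PHGDH, PSAT1 and PSPH, and its conversion to glycine by SHMT2 feeds the mitochondrial folate enzymes MTHFD2 and MTHFD1L, which pass on one-carbon units. Glutamine enters through SLC1A5 and the SLC38 carriers, and leucine and other large neutral amino acids through SLC7A5, which works as a heterodimer with the heavy chain SLC3A2. When amino acids run short, uncharged tRNA activates the kinase GCN2 (EIF2AK4), translation of the transcription factor ATF4 rises, and ATF4 is known to switch on many of these enzymes and carriers through a DNA site called the C/EBP-ATF response element, or CARE. The lysosomal carriers SLC38A9 and SLC36A1 are known for their links to amino acid sensing by the kinase mTORC1.

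The total counts per library ran from 18057453 to 20531612, and 3 counts in a library correspond to 0.146 to 0.166 CPM (counts scaled to the library total, here adjusted by TMM), a floor for counting error only. CON 1 stood apart from the other controls: the chi-square per gene between 2 libraries was 40.3 and 45.8 for the pairs with CON 1 and 4.87 between CON 2 and CON 3. GCA 1 differed from GCA 2 and GCA 3 by 23 and 20.2, against 6.49 between the latter. Of the 12 epithelial markers checked, KRT8, KRT18, KRT19, EPCAM, CDH1 and CDX2 were well detected, with KRT8 at a mean of 4957 CPM in CON. LGR5 had 0 counts in all libraries but GCA 3, which had 1, and CDH17, VIL1, CDX1 and GPA33 had means below 1 CPM in both groups. The epithelial list summed to 7919 to 10111 CPM in CON and 11132 to 12703 CPM in GCA, and 4 of its genes rose. Leukocyte markers summed to 19.99 to 26.6 CPM in CON and 14.96 to 25.8 CPM in GCA, nearly all of it CD68, with PTPRC and CD3E at no more than 1 count in any library. Fibroblast and endothelial markers summed to 11.9 to 13.2 CPM in CON and 16.5 to 18.5 CPM in GCA, with COL1A1 and VWF higher in GCA and COL1A2 and DCN at no more than 3 counts, and cardiomyocyte markers, checked because the extraction protocol names heart, to 1.502 to 2.06 and 1.22 to 1.68 CPM. The part of other cell types in the results below was not tested, and in such libraries fewer expressing cells cannot be told apart from less RNA per cell.

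The CARE core, TGATGNAA, was searched on both strands of RefSeq promoters (GRCh38.p14, from 250 bases before to 50 after each start), because ATF4 is known to act through it. Of the 37 members 29 had an entry, with 58 promoters between them, and PSPH, SHMT2, PYCR1, PYCR3, GPT2, BCAT2, SLC7A2 and SLC6A6 had none. The core was found for 10 of the 29 members, beside 275 of the 10155 tested genes with an entry (2.71%). These shares count a gene with a match in any of its promoters and are not matched for promoters per gene. Counted singly, 3.62% of all 35116 promoters of this length hold the core. The lines below give the 30 bases around each match, read along the gene's strand from 5′ to 3′ with the core in capitals.
ASNS: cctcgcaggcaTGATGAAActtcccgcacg
MTHFD1L: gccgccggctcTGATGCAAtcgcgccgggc
GOT1: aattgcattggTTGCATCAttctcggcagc
SLC7A1: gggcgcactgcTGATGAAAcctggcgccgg
SLC3A2: gtaatgtgcaggactccTTACATCAgctcc
SLC1A4: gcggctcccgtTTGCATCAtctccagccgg
SLC1A5: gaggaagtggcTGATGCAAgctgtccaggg
SLC38A1: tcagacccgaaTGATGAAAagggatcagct
SLC1A3: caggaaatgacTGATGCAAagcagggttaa
BCAT1: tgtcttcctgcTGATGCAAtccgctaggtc

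GOT1, SLC1A4 and SLC3A2 carry the core in the reverse orientation. The ASNS match lies at chr7:97872469-97872476 on the minus strand, 68 bases before a RefSeq start, and GENCODE 29 places it in an exon of another ASNS transcript. The match of MTHFD1L (chr6:150866357-150866364, plus strand) lies 129 and 90 bases before 2 starts and 25 bases into the transcript of another. The match of SLC1A5 (chr19:46784904-46784911, minus strand) belongs to a start inside the gene, and those of SLC1A4 (chr2:64989392-64989399, plus) and SLC38A1 (chr12:46266513-46266520, minus) overlap a start, in introns of other transcripts. The matches of SLC3A2 (chr11:62881736-62881743, plus) and SLC7A1 (chr13:29595674-29595681, minus) begin at bases 38 and 8 of the transcript. The match of GOT1 (chr10:99430815-99430822, minus) begins 198 bases before a start, that of BCAT1 (chr12:24949142-24949149, minus) 48 bases before, both in exons of other transcripts of their genes, and that of SLC1A3 (chr5:36596368-36596375, plus) 220 bases before, outside the gene span. Such a match is a description of the sequence and does not show that a factor binds there.

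Most of the tested members had lower mean levels with GCA, and the enzymes and the transporters had nearly the same median. The median log2 fold change was -0.38 over the 17 tested enzymes and -0.38 over the 18 tested transporters, against -0.04 over all tested genes. Of the enzymes 10 fell and none rose at an adjusted p under 0.05, and of the transporters 8 fell and 2 rose. In this comparison 36.4% of all tested genes passed the threshold, 18.1% lower and 18.3% higher in GCA. All 3 GCA libraries lay below all 3 CON libraries in 9 enzymes and 10 transporters, which 24.3% of all tested genes did, and above them in no enzyme and 3 transporters, which 24.1% did. The log2 fold changes ran from -1.196 to 0.34 among the enzymes and from -1.52 to 1.01 among the transporters, so both ends of the range were transporters. Without CON 2, GCA 2 or GCA 3 the count of enzymes that fell was 6. Calls over all genes in either direction dropped as well, from 4584 to 3029, 3228 and 2621. Fold changes correlated with the GC content of transcripts across all tested genes (r = 0.48, n = 12566 genes, which share the same 6 libraries), and with a correction for GC content and length 12 enzymes and 10 transporters fell, beside 16.7% of all genes.

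**Figure D1:**
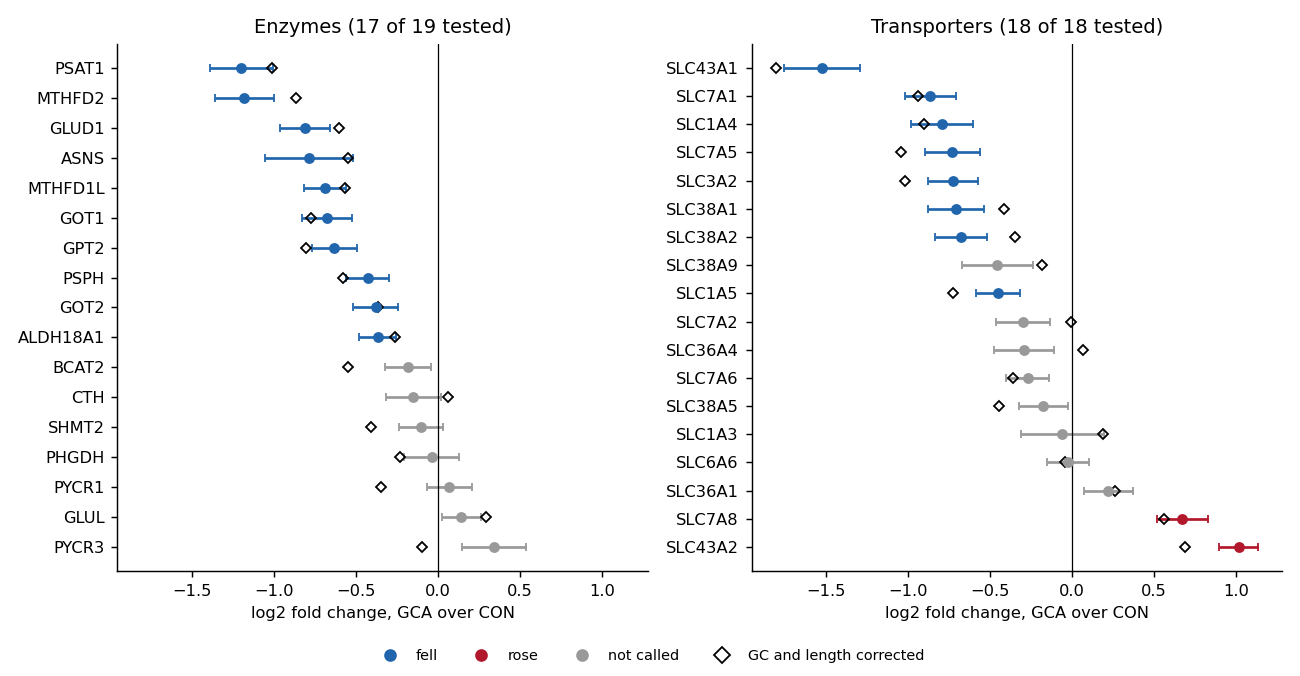
Log2 fold change of each tested member, GCA over CON (points, with SE as bars, n = 3 libraries per group), for enzymes on the left and transporters on the right; colours give the call at an adjusted p under 0.05 and open diamonds the value with the GC content and length correction. PSAT1 and MTHFD2 at the top left and SLC43A1 at the top right were the lowest, and SLC43A2 and SLC7A8 were the members that rose.

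CON 1 lay below both other controls in 9 of the 17 enzymes, near the 48.6% of all tested genes, and above both in 7. Among the 18 transporters it lay below both in 13 and above both in 4. Of the 18 members that fell, 15 had CON 1 as the lowest control (83.3%), beside 1337 of the 2277 genes that fell overall (58.7%). The largest gap was in ASNS, 1.30 lower on the log2 scale in CON 1 than in the mean of CON 2 and CON 3, followed by 0.92 in SLC43A1 and 0.77 in MTHFD2. PYCR3 went the other way, 0.85 higher in CON 1. Median levels relative to the CON mean were -0.18, 0.02 and 0.12 (log2) in the CON libraries against -0.24, -0.49 and -0.48 in the GCA libraries for the enzymes, and -0.22, 0.05 and 0.13 against -0.41, -0.39 and -0.37 for the transporters. Every GCA median was therefore below every CON median in both groups of genes, with CON 1 the nearest control. Without CON 1, 10 enzymes and 10 transporters fell, beside 27.3% of all tested genes, and 1 enzyme and 2 transporters rose, beside 25.3%. Without replicate 1 of both groups 12 enzymes and 10 transporters fell, beside 29.3% of all tested genes, and 2 of each rose, also beside 29.3%.

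**Figure D2:**
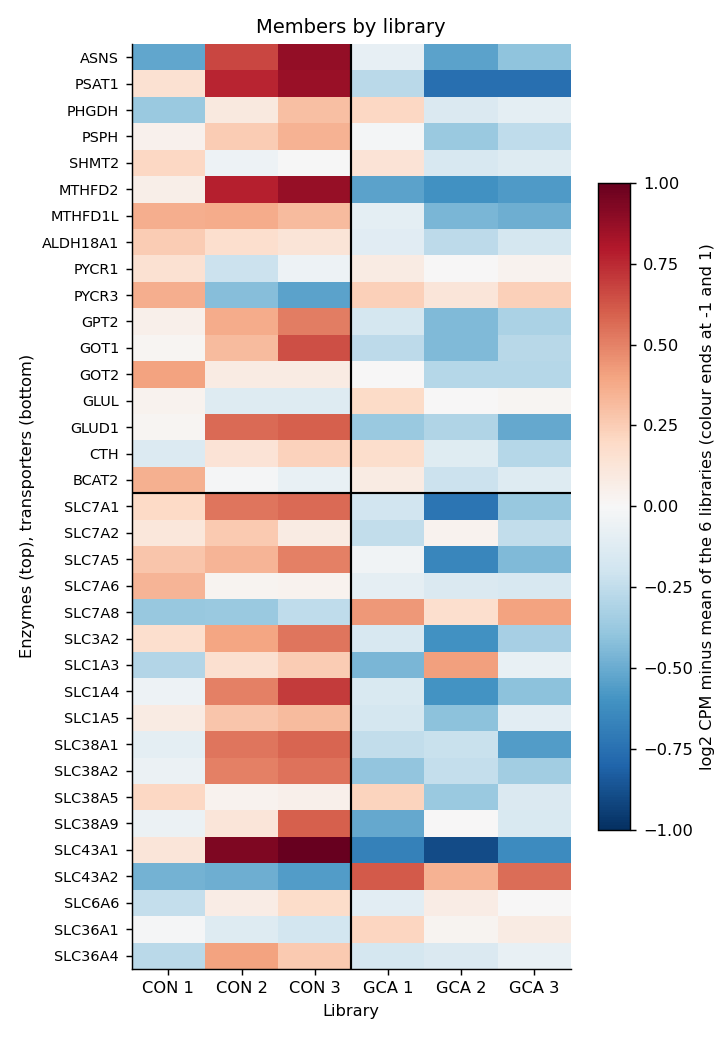
Level of each tested member (rows, enzymes above the line and transporters below) in each of the 6 libraries (columns), as log2 CPM minus the member's mean over the libraries, from blue (low) to red (high). CON 2 and CON 3 are the reddest columns for ASNS, PSAT1, MTHFD2 and SLC43A1, CON 1 is paler than both in most rows, and SLC43A2 and SLC7A8 show the opposite order.

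Among the serine, glycine and one-carbon enzymes 4 of 6 fell, PSAT1, MTHFD2, MTHFD1L and PSPH, while PHGDH and SHMT2 did not pass the test. Over all tested genes 18.1% fell. PSAT1, the aminotransferase of serine synthesis (chr9:78297125-78330093, GRCh38), had 5746, 9333 and 10105 counts in CON against 4808, 3356 and 3264 in GCA (here and below in the order of replicates 1 to 3). Its groups did not overlap, and it went from 443 ± 108 CPM (SD, n = 3) to 193 ± 39.1 CPM (log2 fold change -1.196 ± 0.19, SE; adjusted p = 0.000557). MTHFD2, the mitochondrial methylene-tetrahydrofolate dehydrogenase (chr2:74198615-74217565), had 4818, 8464 and 9108 counts in CON against 3594, 3326 and 3328 in GCA. The GCA libraries were close to each other and all below CON, at 174 ± 4.54 against 394 ± 110 CPM, a 2.26-fold fall (adjusted p = 0.000445). MTHFD1L, which makes formate in mitochondria (chr6:150865702-151101887), had 3293, 3536 and 3433 counts in CON against 2683, 2045 and 1943 in GCA. CON was even here, CON 1 lay between the other controls, and the mean went from 182 ± 3.57 to 113 ± 17.5 CPM (log2 -0.69 ± 0.13, adjusted p = 0.00162).

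PSPH, the phosphatase that releases serine, went from 104 ± 10.9 to 77.4 ± 9.85 CPM with no overlap (log2 -0.43, adjusted p = 0.0224), but leaving out CON 2, CON 3, GCA 2 or GCA 3 ended the call (adjusted p of 0.0791 to 0.107). PHGDH, which commits carbon to serine synthesis (chr1:119711934-119744215), had 5695, 8420 and 9733 counts in CON against 9535, 7288 and 7313 in GCA. The groups overlapped fully, at 420 ± 94.8 and 409 ± 55.8 CPM (log2 -0.04 ± 0.17, adjusted p = 0.876). SHMT2, the mitochondrial serine hydroxymethyltransferase at 227 ± 6.71 FPKM (fragments scaled to gene length and library total) in CON, had 11997, 10696 and 11140 counts in CON against 12769, 10148 and 10092 in GCA. Its CPM values overlapped as well (log2 -0.10 ± 0.14, adjusted p = 0.58), but with the GC content and length correction SHMT2 fell by 0.41 (adjusted p = 0.0165). PHGDH fell by 0.30 when replicate 1 of both groups was left out (adjusted p = 0.00231).

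Within each library PSAT1 stood lower relative to PHGDH in GCA, a comparison that needs no scaling between libraries but does not correct for GC content. The FPKM ratio of PSAT1 to PHGDH was 3.35, 3.68 and 3.45 in CON and 1.68, 1.53 and 1.48 in GCA. CON 1 had the lowest ratio of the controls, but close to the others and above every GCA library. The ratio of MTHFD2 to SHMT2 was 0.243, 0.478 and 0.494 in CON and 0.170, 0.198 and 0.199 in GCA, and that of PSPH to PHGDH was 0.590 ± 0.0787 and 0.441 ± 0.0117. In these 3 ratios the groups did not overlap (exact permutation p = 0.1, two-sided, the smallest that 3 against 3 libraries allow, and 0.233 adjusted over the 14 ratios computed). This test does not use the replicate numbers, and an exact permutation within the 3 pairs gave p = 0.25 for each, the smallest that 3 pairs allow. Transcript GC content was 44.1% for PSAT1 and 57.7% for PHGDH, and 41.4% for MTHFD2 and 59.0% for SHMT2. With the GC content and length correction the log2 fold changes lay closer together, -1.01 for PSAT1 and -0.23 for PHGDH. They were -0.86 for MTHFD2 and -0.41 for SHMT2, and -0.58 for PSPH. The pairs of consecutive enzymes, and the pair of SLC7A5 and SLC3A2 below, were chosen after their values were seen.

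All 4 enzymes of asparagine, alanine and aspartate metabolism fell, beside 18.1% of all tested genes, and ASNS fell with the least certainty. ASNS, which makes asparagine from aspartate and glutamine (chr7:97851677-97928441), had 3929, 9547 and 11133 counts in CON against 5967, 4248 and 4540 in GCA. CON 1 lay within the GCA range, so the groups overlapped, and the means were 431 ± 188 and 250 ± 41.3 CPM (log2 -0.79 ± 0.27, adjusted p = 0.0352). The ASNS call was lost with the replicate number as a block (adjusted p = 0.0601), with the GC content and length correction (0.173) and when any library but CON 1 was left out (0.0633 to 0.144). It was also lost with limma-voom (0.0727) and with limma on log2 FPKM (0.098 to 0.239), in all in 12 of the 20 alternatives. Without CON 1 the log2 value of ASNS was -1.11 (adjusted p = 1.78e-05). Of the 75-base stretches of its transcript 80.7% also occur in AC079781.5, an annotated transcript that overlaps ASNS, so reads of the pair cannot be told apart. GPT2, the mitochondrial alanine aminotransferase (chr16:46884362-46931289), had 1930, 2576 and 2868 counts in CON against 1850, 1504 and 1597 in GCA. It went from 130 ± 20.8 to 84.0 ± 7.63 CPM without overlap (log2 -0.63 ± 0.14, adjusted p = 0.00393).

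GOT1, the cytosolic aspartate aminotransferase (chr10:99396870-99430624), had 3748, 4910 and 6199 counts in CON against 3465, 2974 and 3234 in GCA. It fell 1.59-fold, from 262 ± 56.4 to 164 ± 11.2 CPM, with no overlap (adjusted p = 0.00486). GOT2, its mitochondrial counterpart, had 6366, 5469 and 5499 counts in CON against 5432, 4325 and 4216 in GCA, with CON 1 the highest library. Its fall was smaller (log2 -0.38 ± 0.14, adjusted p = 0.0467), and the call ended without any one of CON 2, CON 3, GCA 2 and GCA 3 (adjusted p of 0.0701 to 0.187), with the size factors of DESeq2 (0.0673) and with a filter at a mean of 1 CPM (0.0644). The FPKM ratio of GOT1 to GOT2 overlapped between the groups, at 1.07 ± 0.331 in CON and 0.854 ± 0.0798 in GCA (exact permutation p = 0.4).

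In glutamate, glutamine and proline metabolism GLUD1 and ALDH18A1 fell, and GLUL, PYCR1 and PYCR3 did not pass the test. GLUD1, the glutamate dehydrogenase that links glutamate to the citric acid cycle (chr10:87050202-87094843), had 2319, 3622 and 3739 counts in CON against 1994, 2038 and 1712 in GCA. It went from 171 ± 35.9 to 97.4 ± 7.15 CPM without overlap (log2 -0.81 ± 0.15, adjusted p = 0.00168). Of its transcript's 75-base stretches 18.3% also occur in the retrogene GLUD2, whose own row held 3 to 6 counts per library. ALDH18A1, the first enzyme of proline synthesis, went from 156 ± 6.85 to 121 ± 6.27 CPM (log2 -0.37, adjusted p = 0.0225), a call that ended without any one of CON 2, CON 3, GCA 2 and GCA 3 (adjusted p of 0.0633 to 0.0925). PYCR1, the mitochondrial pyrroline-5-carboxylate reductase that completes proline synthesis (chr17:81932391-81937300), had the highest mean level per length of the 37 genes, 481 ± 32.3 FPKM in CON and 491 ± 10.9 FPKM in GCA. PYCR1 had 20906, 17344 and 19575 counts in CON against 22349, 20712 and 20487 in GCA, with GCA inside the CON range in CPM (log2 0.07 ± 0.14, adjusted p = 0.712). With the GC content and length correction PYCR1 turned to -0.34 (adjusted p = 0.0211).

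PYCR3, a cytosolic reductase of the same family, had 1185, 730 and 683 counts in CON against 1218, 1093 and 1155 in GCA. CON 1 was the highest library in CPM (66.0) and the other controls were the lowest (38.1 and 35.4), with all GCA libraries in between (55.6 to 60.5). Its log2 value was 0.34 with all libraries (adjusted p = 0.183), 0.68 without CON 1 (adjusted p = 0.000119) and -0.10 with the GC content and length correction. GLUL, which makes glutamine, stood at 196 ± 13.0 and 216 ± 16.1 CPM (log2 0.14, adjusted p = 0.366).

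The transsulfuration and branched-chain enzymes gave no call. CTH, which releases cysteine from cystathionine, had 234, 301 and 324 counts in CON against 325, 258 and 224 in GCA, with overlapping groups (log2 -0.15 ± 0.17, adjusted p = 0.503). BCAT2, the mitochondrial branched-chain aminotransferase, had 2247, 1859 and 1798 counts in CON against 2087, 1654 and 1712 in GCA (log2 -0.18 ± 0.14, adjusted p = 0.317). BCAT2 fell by 0.55 with the GC content and length correction (adjusted p = 0.00463). BCAT1, its cytosolic relative, had 12, 36 and 5 counts in CON against 4, 10 and 3 in GCA and was not tested. CBS, which starts transsulfuration, had 0, 1 and 0 counts in CON against 0, 0 and 2 in GCA. However, 93.5% of the 75-base stretches of its transcript also occur in the annotated copy CBSL, whose row held at most 2 counts, so reads that match both may not have been counted and the level of CBS is uncertain.

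Among the 8 large neutral and cationic carriers the groups were separate in every gene, lower in GCA for 6 and higher for 2. Of all tested genes 24.3% were separate with GCA lower and 24.1% with GCA higher. SLC7A5, the leucine transporter LAT1 (chr16:87830023-87869507), had 38954, 43571 and 49081 counts in CON against 35215, 22375 and 25230 in GCA. It went from 2328 ± 192 to 1403 ± 312 CPM (log2 -0.73 ± 0.17, adjusted p = 0.00515), GCA 1 being the nearest to CON. SLC3A2, its heavy chain (chr11:62856109-62888860), had 12733, 15895 and 17607 counts in CON against 11391, 8148 and 9578 in GCA, and went from 817 ± 102 to 494 ± 75.6 CPM (log2 -0.73 ± 0.15, adjusted p = 0.00297). The ratio of the heterodimer's 2 parts overlapped between the groups, with SLC7A5 at 1.39, 1.25 and 1.27 times the FPKM of SLC3A2 in CON and 1.41, 1.25 and 1.1996 in GCA (log2 difference -0.02, exact permutation p = 0.8). SLC7A1, the arginine and lysine transporter CAT1 (chr13:29509414-29595688), had 4502, 6071 and 6245 counts in CON against 3841, 2585 and 3194 in GCA. It fell 1.82-fold, from 297 ± 40.1 to 163 ± 29.7 CPM (adjusted p = 0.00123).

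SLC43A1 and SLC43A2 encode LAT3 and LAT4, carriers of large neutral amino acids that need no heavy chain, and they moved in opposite directions. SLC43A1 (chr11:57484534-57515702) had 206, 386 and 447 counts in CON against 133, 111 and 130 in GCA, the largest fall of all members (from 18.2 ± 6.06 to 6.35 ± 0.618 CPM; adjusted p = 0.000421). SLC43A2 (chr17:1569254-1630088) had 519, 547 and 525 counts in CON against 1232, 999 and 1126 in GCA. It rose 2.02-fold, from 28.2 ± 0.903 to 57.0 ± 5.42 CPM (adjusted p = 7.71e-05), and by 0.69 on the log2 scale with the GC content and length correction. SLC43A1 therefore stood at 1.08, 1.91 and 2.31 times the FPKM of SLC43A2 in CON and at 0.292, 0.301 and 0.313 times in GCA. That ratio put SLC43A1 above SLC43A2 in each CON library and below it in each GCA library (exact permutation p = 0.1). In counts SLC43A1 was below SLC43A2 in every library. The order in CON therefore depends on the lengths behind the FPKM values, 3396 and 9200 bases, while the separation of the groups does not.

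SLC7A8, the LAT2 subunit that also pairs with SLC3A2 (chr14:23125295-23183660), had 149, 160 and 174 counts in CON against 293, 238 and 271 in GCA. It rose from 8.55 ± 0.398 to 13.6 ± 1.31 CPM (log2 0.67 ± 0.16, adjusted p = 0.00563). SLC7A5 remained far above it per length, but the ratio of SLC7A5 to SLC7A8 went from 237 ± 8.99 to 89.2 ± 13.4 with no overlap (exact permutation p = 0.1). SLC7A6, the light chain of a carrier that exchanges cationic for neutral amino acids (log2 -0.27, adjusted p = 0.12), and SLC7A2, a cationic carrier (log2 -0.30, adjusted p = 0.162), did not pass the test although GCA lay below CON in both. With the GC content and length correction SLC7A6 fell by 0.36 (adjusted p = 0.0471), while SLC7A2 stood at -0.01.

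**Figure D3:**
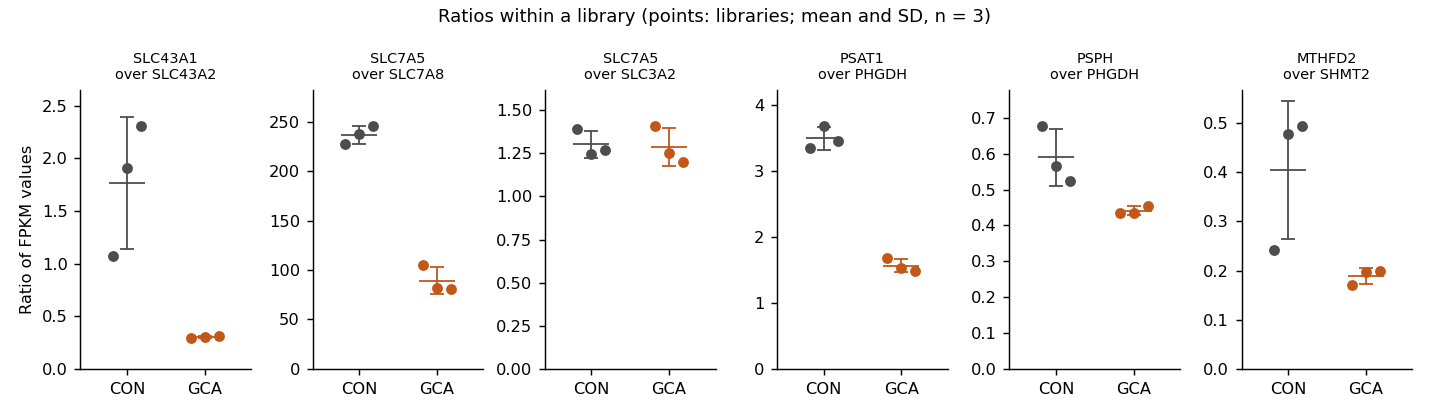
Ratio of 2 members' FPKM values within each library (points), with the group mean and SD (n = 3), for 6 of the 14 ratios computed; each vertical axis starts at 0. SLC7A5 over SLC3A2 lies at 1.1996 to 1.41 in both groups, while GCA lies below CON in the other 5.

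Among the 6 carriers of the SLC1 and SLC38 families that carry acidic amino acids, small neutral amino acids or glutamine, 4 fell, beside 18.1% of all tested genes. These were SLC1A4, SLC1A5, SLC38A1 and SLC38A2. SLC1A5, the glutamine carrier ASCT2 (chr19:46774883-46788594), had 10173, 12434 and 12879 counts in CON against 9549, 7908 and 9491 in GCA. It went from 627 ± 53.4 to 458 ± 49.3 CPM without overlap (log2 -0.45 ± 0.13, adjusted p = 0.019), and by -0.72 with the GC content and length correction. Leaving out CON 2, CON 3 or GCA 2 ended the call (adjusted p of 0.0787 to 0.0986). SLC1A4, the related serine and alanine carrier ASCT1 (chr2:64988479-65023865), had 367, 575 and 662 counts in CON against 383, 275 and 304 in GCA. In CPM GCA 1 (19.01) was just below CON 1 (20.4), and the log2 fold change of SLC1A4 was -0.79 ± 0.19 (adjusted p = 0.00625).

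SLC38A2, the starvation-responsive system A carrier SNAT2 (chr12:46358188-46372773), had 9573, 15101 and 15638 counts in CON against 8522, 9271 and 8350 in GCA. It went from 710 ± 154 to 444 ± 25.2 CPM without overlap (log2 -0.68 ± 0.16, adjusted p = 0.00621). SLC38A1, the neighbouring system A gene SNAT1 (chr12:46183063-46269043), had 1609, 2670 and 2773 counts in CON against 1629, 1615 and 1245 in GCA, and fell by 0.71 ± 0.17 (adjusted p = 0.00682), a call lost without GCA 3 (adjusted p = 0.0522). With the GC content and length correction the falls were smaller, 0.35 for SLC38A2 (adjusted p = 0.0405) and 0.41 for SLC38A1 (adjusted p = 0.0278). Their ratio overlapped, SLC38A1 standing at 0.0756 ± 0.00226 of the FPKM of SLC38A2 in CON and 0.0744 ± 0.00918 in GCA (exact permutation p = 0.8). SLC38A5, a system N carrier of glutamine and histidine (log2 -0.18, adjusted p = 0.371), fell by 0.44 with the correction (adjusted p = 0.0361). The glutamate and aspartate carrier SLC1A3 was low in both groups (4.76 ± 0.905 and 4.58 ± 1.38 CPM), with overlapping values (log2 -0.06, adjusted p = 0.871).

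**Figure D4:**
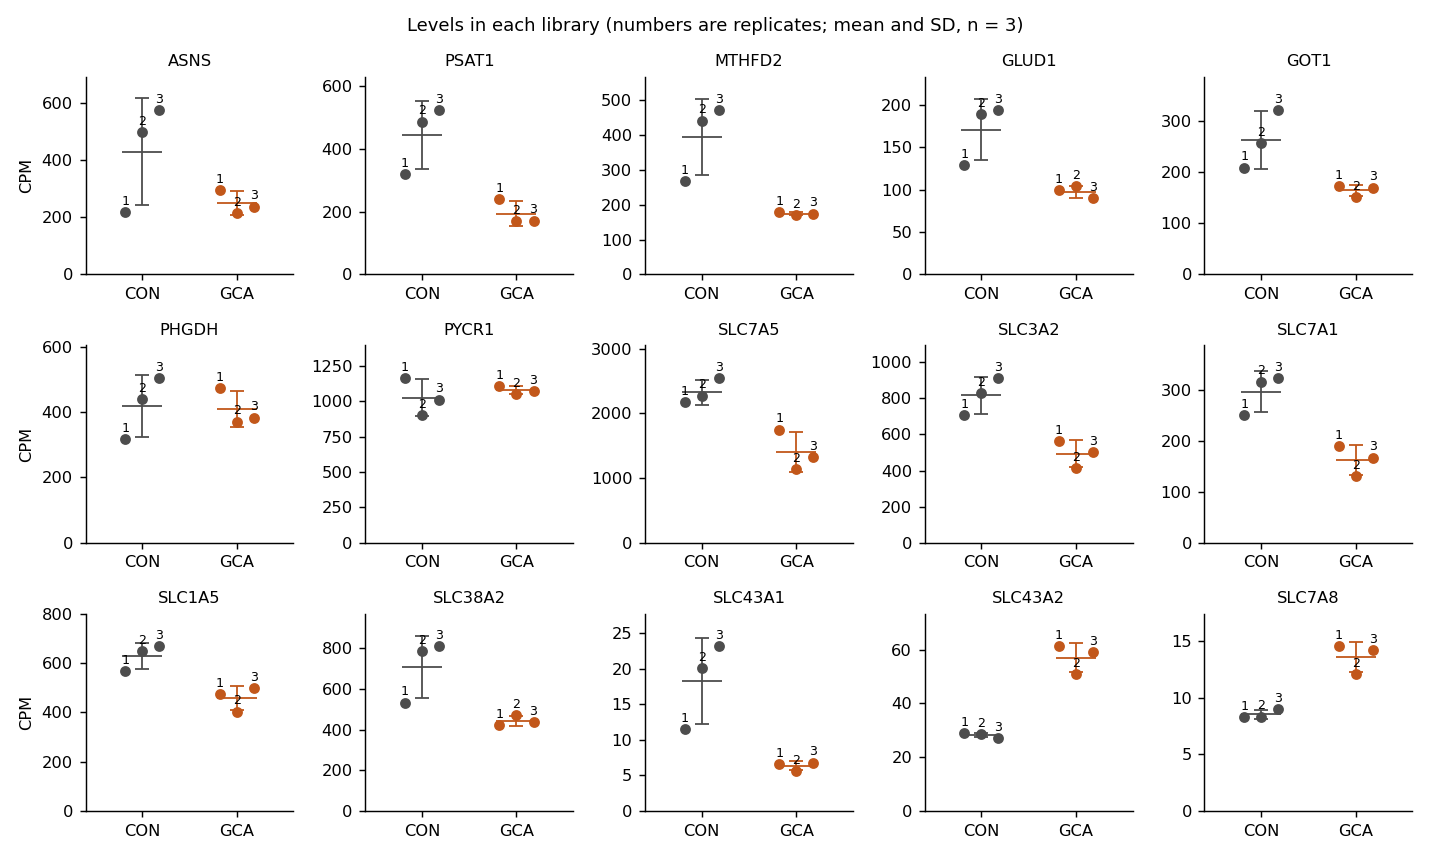
CPM of 15 members in each library (points numbered by replicate), with the group mean and SD (n = 3); each vertical axis starts at 0. CON 1 is the lowest control in PSAT1, MTHFD2, SLC38A2 and SLC43A1 but still above every GCA library there, while in ASNS it lies within the GCA points, and PHGDH and PYCR1 overlap between the groups.

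None of the lysosomal and proton-coupled carriers passed the test. SLC38A9, a lysosomal arginine sensor and carrier, had 120, 145 and 203 counts in CON against 98, 137 and 119 in GCA (log2 -0.46 ± 0.22, adjusted p = 0.115). SLC36A4, a carrier of proline and tryptophan, stood at -0.29 (adjusted p = 0.228) and SLC36A1, which exports small amino acids from lysosomes with protons, at 0.22 (adjusted p = 0.258). Without CON 1 both SLC38A9 and SLC36A4 fell, by 0.59 and 0.47 (adjusted p = 0.0251 and 0.013), and SLC36A4 turned to 0.06 with the GC content and length correction. The taurine carrier SLC6A6 had 1234, 1636 and 1772 counts in CON against 1517, 1674 and 1549 in GCA, with GCA inside the CON range in CPM (log2 -0.02 ± 0.13, adjusted p = 0.895).

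Per length, the order of levels in CON ran from PYCR1 (481 ± 32.3 FPKM) and SLC7A5 (443 ± 58.9), which differed by less than the SD of SLC7A5, to SLC3A2 (342 ± 61.6). SLC7A5 was above PYCR1 in CON 2 and CON 3 and below it in CON 1. SHMT2 (227 ± 6.71), PSAT1 (206 ± 61.2) and SLC1A5 (203 ± 29.6) followed and did not differ beyond their spread, PSAT1 lying above SHMT2 in CON 2 (234 against 221 FPKM) and CON 3 (249 against 226) and below it in CON 1 (136 against 235). The next 4, SLC38A2 (152 ± 41.2), ASNS (140 ± 66.4), GOT1 (136 ± 35.6) and GOT2 (129 ± 7.76), did not differ beyond their spread. In GCA PYCR1 (491 ± 10.9) stood further above SLC7A5 (257 ± 56.4), SHMT2 (206 ± 23.1) was level with SLC3A2 (199 ± 29.5), and PSAT1 was at 86.3 ± 17.2 FPKM. These levels are the deposited FPKM values, which use 1 length per gene. For some members that length was far from the longest protein-coding transcript in GENCODE 29. It was 7328 against 2585 bases for PHGDH and 13295 against 3604 for MTHFD1L, while GOT1 had 1978 against 2923. The order therefore depends on the lengths used, and an order with other lengths was not computed.

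The CARE core was present for 8 of the 16 members that fell and had a promoter entry, for 1 of 9 that were not called (SLC1A3), for neither of the 2 that rose and for the untested BCAT1. Among all 10155 tested genes with an entry, 275 (2.71%) had it in at least 1 promoter. These 8 were ASNS, MTHFD1L, GOT1, SLC7A1, SLC3A2, SLC1A4, SLC1A5 and SLC38A1, so PSAT1, MTHFD2 and SLC43A1, with the largest falls, had no match in this window. The E-box CACGTG, which MYC and related factors bind and which does not overlap the CARE matches, was present for 5 of the 16 (ALDH18A1, MTHFD1L, SLC1A5, SLC43A1 and SLC7A5). It was also present for SLC7A8, which rose, for SLC36A1 and SLC38A5, which were not called, and for BCAT1. Of the tested genes 12.62% and of all promoters 7.26% hold the E-box. ATF4 binding was not measured, and the members were chosen as genes of a pathway that ATF4 is known to regulate.

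Of 17 listed regulators of the amino acid response, all tested, 9 fell and none rose (median log2 fold change -0.46), beside 18.1% lower and 18.3% higher over all tested genes. CON 1 was the lowest control in 15 of the 17, which it was in 48.6% of all tested genes. ATF4 went from 1225, 1133 and 1257 CPM in CON to 890, 762 and 914 CPM in GCA (log2 -0.49 ± 0.13, adjusted p = 0.012), and CON 1 lay between the other controls. CEBPG, a dimer partner of ATF4, was at 34.9, 61.8 and 67.6 CPM in CON against 24.9, 27.0 and 27.1 in GCA, and fell by 1.06 ± 0.20 (adjusted p = 0.0015). TRIB3, a pseudokinase that restrains ATF4, was at 234, 325 and 480 CPM in CON against 173, 140 and 159 in GCA. It fell by 1.14 ± 0.21 (adjusted p = 0.00137). DDIT3, which encodes CHOP, was at 14.3, 31.7 and 56.9 CPM in CON against 5.06, 8.65 and 9.58 in GCA. It fell by 2.14 ± 0.39 (adjusted p = 0.00122), with CON 1 lower by 1.63 (log2) than the mean of CON 2 and CON 3. EIF2AK4, the gene of the amino acid sensing kinase GCN2, fell by 0.60 (adjusted p = 0.00421) and its activator GCN1 by 0.43 (adjusted p = 0.0332). EIF2AK4 and GCN1 were named after their values were seen. ATF3, a stress-induced factor, fell by 1.13 (adjusted p = 0.000259).

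Of the listed amino acid and folate enzymes outside the 37 genes 5 of 27 tested genes fell and 3 rose (median log2 fold change 0.09). Over all tested genes the shares were 18.1% and 18.3%, so the share that fell was near the background. Without CON 1, 7 fell and 6 rose, beside 27.3% and 25.3%. TYMS, thymidylate synthase, fell by 0.68 (adjusted p = 0.00587) and MTRR, which reactivates methionine synthase, by 0.83 (adjusted p = 0.00223). SHMT1, the cytosolic counterpart of SHMT2, rose by 0.52 (adjusted p = 0.00406) and BCKDHA, of branched-chain keto acid breakdown, by 0.63 (adjusted p = 0.00172), the latter a call lost with the GC content and length correction (adjusted p = 0.0864).

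Of the other amino acid transporters and genes of their families 20 of 43 listed genes were tested. Among these 4 fell and 4 rose, near the 18.1% and 18.3% of all tested genes. SLC7A11, the cystine carrier xCT, was at 24.3, 54.7 and 53.2 CPM in CON against 23.9, 19.9 and 15.2 in GCA, CON 1 lying next to GCA 1, and fell by 1.17 ± 0.26 (adjusted p = 0.00407), or by 0.74 with the correction. SLC25A15, the mitochondrial ornithine carrier, fell by 0.73 (adjusted p = 0.000846). SLC43A3, which is in the list as a gene of the SLC43A1 family, fell by 0.69 (adjusted p = 0.00105). SLC6A20, a proline carrier, rose by 1.65 ± 0.21 (adjusted p = 0.000143), from a mean of 3.58 to 11.3 CPM. SLC38A10 rose by 0.79 and SLC38A3 by 0.80, calls that were lost with the GC content and length correction (adjusted p = 0.0579 and 0.114).

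In the list of amino acid sensing at the lysosome 5 of 31 tested genes fell and 6 rose, near the 18.1% and 18.3% of all tested genes. The leucine sensor SESN2 was at 113, 110 and 149 CPM in CON against 60.3, 51.8 and 62.5 in GCA (log2 -1.09, adjusted p = 0.000147), and SESN1 fell by 1.07 (adjusted p = 0.00286). The arginine sensor gene CASTOR1 was at 4.01, 4.22 and 4.35 CPM in CON against 9.03, 9.57 and 13.9 in GCA (log2 1.37, adjusted p = 0.0004). CASTOR2 rose by 1.12 (adjusted p = 0.000163). The groups did not overlap in any of these 4 genes, as in 24.3% of all tested genes with GCA lower and 24.1% with GCA higher. Without CON 1, 7 genes of the list fell and 10 rose, beside 27.3% and 25.3% of all tested genes. LAMTOR4, of the Ragulator complex, rose by 0.51 (adjusted p = 0.0396), a call lost with the GC content and length correction (adjusted p = 0.309), and SEH1L, of the GATOR2 complex, fell by 0.43 (adjusted p = 0.0138).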

How the data were processed

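RNA-seq counts per gene were measured in 6 libraries, 3 GCA and 3 CON. The deposited tables, made by the authors, hold unnormalised counts and FPKM values. Per the submitters' processing notes the build was hg38 and the tools included HTSeq 0.11.2, fastp 0.20.1 and HISAT2 2.2.1.0. Which annotation, strand setting and filters were used is not given in the sources read, so antisense or overlapping genes may share reads. Each deposited FPKM value equals the count over the library total and a single length, within a relative tolerance of 1e-09, in 16229 of 16229 genes, so it adds no independent measurement. Columns were matched by title and grouped by the treatment label.

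Counts were tested with edgeR 4.0.16 (R 4.3.3): TMM, filterByExpr (minimum count 10, total 15), quasi-likelihood F test, Benjamini-Hochberg adjustment over all 12604 genes, threshold 0.05. The SE is the log2 fold change over the square root of F. On simulated counts of 12604 genes for this comparison the fit recovered 95 of 100 genes changed by 1 on the log2 scale and 33 of 100 changed by 0.5, and called 5 of 12404 unchanged genes. The simulation held no outlying library, pairing or shift with GC content, so these rates may not hold for the real libraries. Alternatives used DESeq2 1.42.0, limma 3.58.1 (voom, and log2 of FPKM plus 1 or 0.1), other scalings and filters, a per-library loess offset on GC content and length (span 0.3; GENCODE 29, 99.3% of genes), a replicate block and left-out libraries. CON and GCA libraries with the same replicate number deviated together from their group means (r = 0.206, 0.137 and 0.104 across genes), each above 0.1. Deviations from a mean of 3 libraries cancel within the group, so these r values are not independent of each other. Libraries with different numbers gave r of -0.172 to 0.095, so the lowest matched value was hardly higher and the pairing is uncertain. The numbers were taken to pair the libraries only in the replicate block and the permutation within pairs. The main test does not use them. Gene coordinates and promoters are RefSeq, GRCh38.p14.

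All members may be named; full values are given for members past the threshold with an absolute log2 fold change of at least 0.5 and for the most abundant member of each role. Of the other lists the most abundant called gene in each direction and at most 4 more by lowest p are named. The members and lists were chosen with earlier results of these data known. Some results on other genes of these lists and ratios are not reported here.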

Additional observations from a re-analysis of the deposited data

How the results depend on the processing

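The 20 alternatives were other scalings, filters and tests, the GC content and length correction, the replicate block, and left-out libraries. Of the 20 called members 12 kept their direction and call in all of them, 8 lost the call in at least 1, and none reversed. Of the 15 tested members not called, 11 passed under at least 1 alternative. The same counts over all tested genes are not given here, so neither figure sets the members apart from other genes. Over left-out single libraries all genes called ran from 2621 (without GCA 3) to 6707 (without CON 1), with 3029 without CON 2, and member enzymes that fell from 6 to 10, that rose from 0 to 1 (PYCR3 without CON 1), and transporters that fell from 7 to 10. Without replicate 1 of both groups 7419 genes were called and 2 member enzymes rose (PYCR1 and PYCR3). The replicate block gave 9 enzymes and 8 transporters that fell, ASNS being the call lost, and it changed no other member's call. Over all 12604 tested genes 2645 fell and 2518 rose with the block, against 2277 and 2307 in the main test. The block with the correction let 1 enzyme (GLUL) rise, beside 1698 of all 12604 tested genes. On unfiltered log2(FPKM + 1) 5 transporters fell, without SLC1A4, SLC38A1 and SLC38A2, and ASNS and PSPH lost their calls. In that setting 3500 genes were called in either direction, against 4584 in the main test. The enzyme median was -0.545 with the correction (without a single library, -0.47 to -0.33). The transporter median was -0.43 with library size only, -0.40 with upper quartile scaling, -0.35 with a mean of at least 1 CPM, -0.29 on log2(FPKM + 1) with or without the filter, -0.35 with the correction, -0.345 with block and correction, -0.42 without replicate 1 of both groups, and -0.50 to -0.32 without a single library.

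Members not called in the main test changed sign as follows. PHGDH was above 0 without CON 2, CON 3, GCA 2 or GCA 3 (over left-out libraries, -0.299 to 0.126). PYCR1 was at -0.34 and -0.35 with the correction, without and with the block, and at -0.00268 without CON 2 (over left-out libraries, up to 0.173). With the correction, without and with the block, PYCR3 was at -0.097 and -0.064, CTH at 0.063 and 0.054, SLC1A3 at 0.19 and 0.18, and SLC36A4 at 0.064 and 0.065. SLC1A3 was above 0 without CON 2, CON 3, GCA 1 or replicate 1 of both groups (over left-out libraries, -0.313 to 0.147). SLC6A6 was at 0.0034 with a mean of at least 1 CPM and above 0 without CON 2, CON 3 or GCA 1 (over left-out libraries, -0.139 to 0.0773). The cause of these changes was not tested. Low counts limit BCAT1 and CBS, which were not tested.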
